A study of Homo sapiens with 9 samples.

Results

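The genes of the NRF2 antioxidant program, with the glutathione and thioredoxin systems it feeds, were followed as mRNA in a colorectal cancer cell line and 2 drug-resistant lines derived from it. The set was a list of 40 gene symbols, and 39 of them were found among the 19976 genes of the mRNA table, and GPX1 was not analysed here. The chemosensitive parent, HCT8, is an established line from a human colorectal adenocarcinoma. HCT8/5-Fu was raised from it by growth in rising amounts of 5-fluorouracil (5-Fu), an antimetabolite of pyrimidine metabolism, over more than 7 months, and was kept in 5 μg/ml of the drug. HCT8/DDP was raised in the same way with cisplatin (DDP), which crosslinks DNA, and was kept in 1 μg/ml. All 3 lines grew in the same RPMI1640 medium with serum. With a single derived line for each drug, what the drug did and what the long separate culture of that line did cannot be told apart. Sequencing gave 3 libraries per line. The authors describe removal of rRNA from total RNA and then of linear RNA with RNase R. Whether the latter step preceded the mRNA counts is not stated. The labels do not say whether the 3 libraries came from separate cultures. Their p-values thus cover the spread among the 3 libraries of a line and no more, and that spread may be technical.

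NRF2, encoded by NFE2L2, is a transcription factor that is normally held by KEAP1 and passed on for degradation. Oxidants and electrophiles modify KEAP1, NRF2 accumulates, pairs with a small MAF protein and binds antioxidant response elements in front of genes for glutathione synthesis, thioredoxin reduction, NADPH supply and detoxification. The pathway is regulated largely at the level of the NRF2 protein, which was not measured here. It is known for its part in the handling of oxidative and electrophilic stress by tumor cells, including stress from drugs.

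The core of the antioxidant response element, written TGACNNNGC or on the other strand GCNNNGTCA, was looked for in RefSeq promoter windows (GRCh38.p14) that run from 250 bases before to 50 bases after a gene's start. It lay in a window of 10 of the 33 members that have one (30.3%), against 4384 of 27305 genes in all (16.1%). These members were KEAP1, GCLM, GPX2, GSTA4, GSTP1, GSTO1, MGST1, TXNRD1, PGD and ME1. A match is only a match of letters in this window, and binding was not measured. GSTA4, whose core ends just before the annotated start but whose stretch crosses it, and MGST1, whose core lies after it, are not shown. The following 39-base stretches show 1 core for each of the 8 members that have a stretch ending before the start. They are on the strand of the gene, with the core in capitals.
KEAP1, chr19:10502779-10502817: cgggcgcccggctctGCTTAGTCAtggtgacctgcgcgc
GCLM, chr1:93909441-93909479: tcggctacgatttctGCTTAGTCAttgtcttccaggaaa
GPX2, chr14:64942844-64942882: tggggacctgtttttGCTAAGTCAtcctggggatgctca
GSTP1, chr11:67583731-67583769: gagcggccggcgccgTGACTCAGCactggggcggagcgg
GSTO1, chr10:104254716-104254754: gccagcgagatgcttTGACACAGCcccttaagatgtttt
TXNRD1, chr12:104286915-104286953: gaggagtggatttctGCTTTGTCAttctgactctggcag
PGD, chr1:10398848-10398886: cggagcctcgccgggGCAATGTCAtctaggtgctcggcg
ME1, chr6:83431165-83431203: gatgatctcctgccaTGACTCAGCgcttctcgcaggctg
KEAP1 and GCLM carried the same 9 letters, and the KEAP1, GSTO1, TXNRD1 and ME1 windows also hold cores that are not shown. GSTP1 and ME1 carried the same core, which also contains TGACTCA, the motif of AP-1, so the letters alone do not tell which factor it would serve.

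The libraries held 19753035 to 28535882 counts. HCT8/5-Fu replicate 1 stood apart from its line: over 13242 genes its Pearson correlation with the other HCT8/5-Fu libraries was 0.976 and 0.978, no higher than with the HCT8/DDP libraries (0.973 to 0.979), whereas replicates 2 and 3 correlated at 0.997. HCT8 replicate 1 stood apart less (0.988 and 0.989 against 0.996). Where leaving out either of these libraries alone changes a member's call against HCT8, the value without it is also given. Of 12 colorectal epithelial markers, 8 were called higher in each resistant line than in HCT8 and none lower, with CEACAM5 too low for a test in HCT8/5-Fu. Their summed level was 5608 to 6755 CPM in HCT8 (counts scaled to a common library total), 13430 to 15990 CPM in HCT8/5-Fu and 9589 to 10950 CPM in HCT8/DDP. Keratins made up most of this sum, with KRT8 at 2468, 7287 and 4524 CPM on average in these lines and KRT18 at 1536, 4475 and 2931 CPM. CDH1, CDX2 and VIL1 were not called in either resistant line. EPCAM and the keratins KRT8 and KRT18 were present in all libraries, while the leukocyte genes PTPRC and CD3E had no count in any library, and the summed levels of 7 fibroblast, 5 leukocyte and 4 endothelial markers did not exceed 14.0, 0.635 and 2.07 CPM. The part of the rise in these 8 epithelial markers in the results below was not tested.

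Of the 39 members, 37 had enough counts for a test. The glutathione transferase GSTA1 had no count in 8 libraries and 4 counts in HCT8/DDP replicate 2. SRXN1, which repairs overoxidized peroxiredoxins, had 1 to 8 counts a library, so both lay near the floor of 3 counts (0.105 to 0.152 CPM by library). A member was called changed at an adjusted p under 0.05 in edgeR's quasi-likelihood test, adjusted over all genes tested (Benjamini-Hochberg). In HCT8/5-Fu, 4 members were higher and 10 lower than in HCT8, that is 37.8% of the 37, beside 38.7% of all 13228 genes tested (20.4% higher and 18.3% lower). HCT8/DDP had 10 members higher and 12 lower, 59.5% of the 37, beside 52.5% of all 13373 genes (27% higher and 25.5% lower). Past a log2 fold change of 1, there were 3 higher and 6 lower members in HCT8/5-Fu (24.3%), beside 16.4% of all genes (7.51% higher and 8.88% lower). HCT8/DDP had 4 higher and 6 lower past this size (27%), beside 16.2% of all genes (8.8% higher and 7.37% lower). The median log2 fold change of the members was -0.02 in HCT8/5-Fu and 0.03 in HCT8/DDP, beside -0.00 and -0.01 over all genes. The median member thus lay near no change in both lines. Scaling by library totals in place of TMM factors moved the median log2 fold change of all genes by -0.10 for the first comparison and -0.12 for the second, and left 4 higher and 11 lower members in the former and 8 and 14 in the latter. With these totals, 41.3% of all calls were higher in HCT8/5-Fu and 38.4% in HCT8/DDP, against 52.6% and 51.5% with TMM.

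Both comparisons share the HCT8 libraries, so their values are set side by side below and a change seen in both is not counted as found a second time. Without HCT8/5-Fu replicate 1, 11 members were higher and 12 lower in HCT8/5-Fu, where 56.1% of all genes were then called. Leaving out the first replicate of HCT8 as well, a choice made after seeing the data, gave 15 higher and 16 lower beside 73.1% of all genes. The libraries left in that fit were the most alike of their lines (Pearson correlation 0.996 in HCT8 and 0.997 in HCT8/5-Fu). Its p-values thus rest on a small spread and are the least cautious here. In bulk RNA, fewer cells that express a gene and less of its RNA in each cell cannot be told apart.

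**Figure D1:**
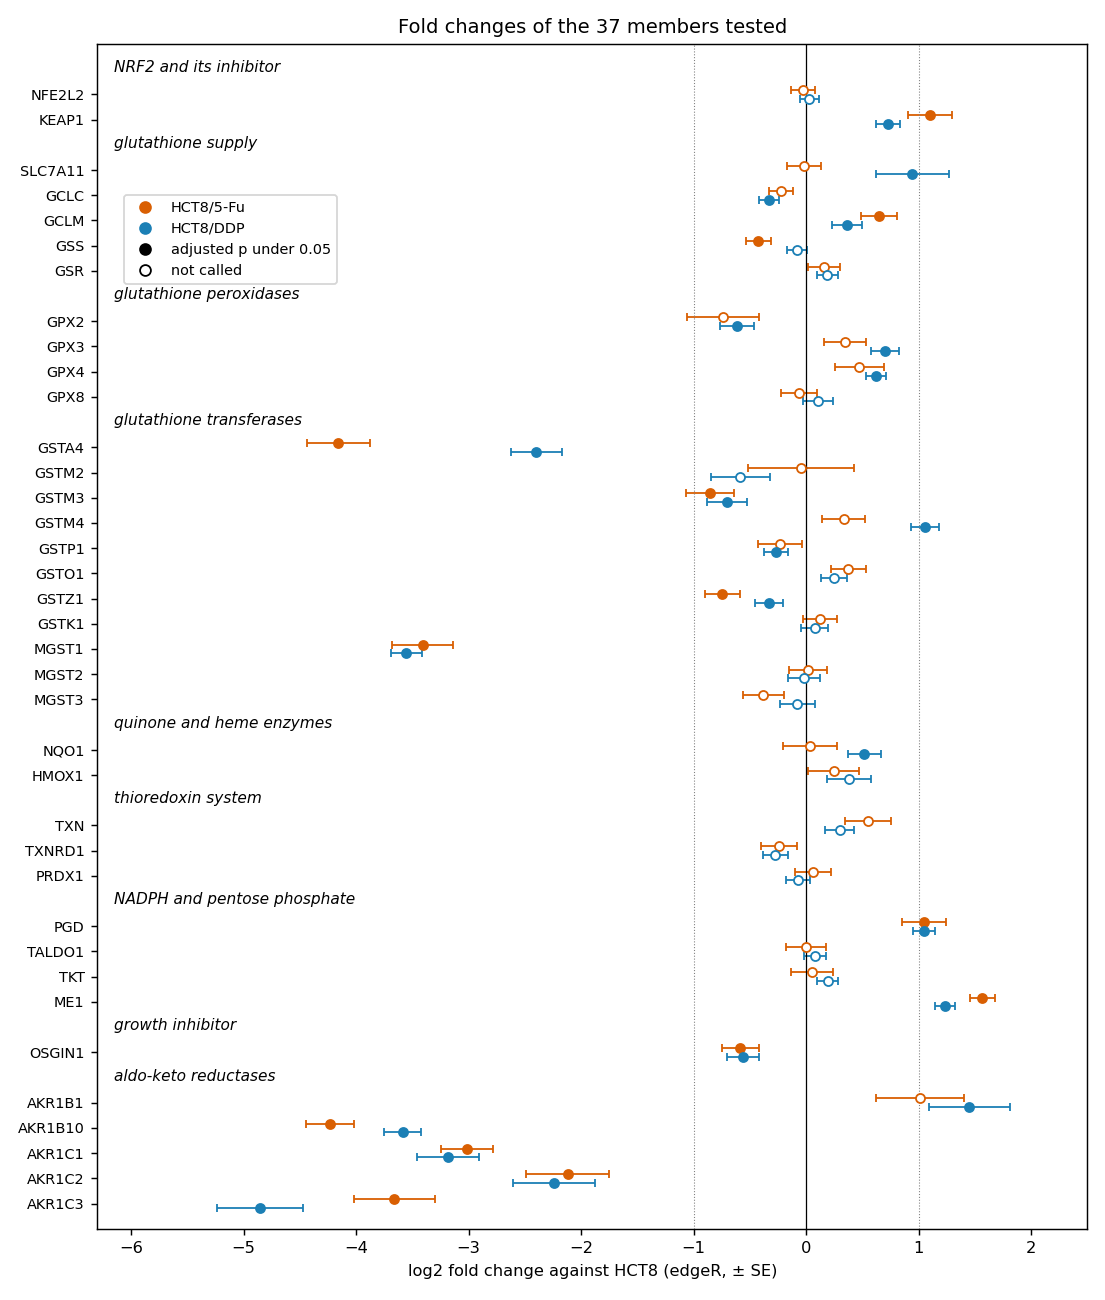
Log2 fold change against HCT8 of the 37 members tested, grouped by role, in HCT8/5-Fu (orange) and HCT8/DDP (blue), with bars of ± SE (edgeR, 3 libraries per line). Filled points have an adjusted p under 0.05. GSTA4, MGST1, AKR1B10 and AKR1C1 to AKR1C3 lie far to the left in both lines, and most other members lie within 1 of no change.

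The regulators came first. NFE2L2 measured 155, 151 and 139 CPM in the HCT8 libraries, 138, 134 and 133 CPM in HCT8/5-Fu and 143, 136 and 139 CPM in HCT8/DDP. Its log2 fold change was -0.03 ± 0.11 (SE) in HCT8/5-Fu (edgeR adjusted p = 0.831) and 0.03 ± 0.09 in HCT8/DDP (edgeR adjusted p = 0.808), and no setting tried called it. KEAP1, the substrate adaptor that holds NRF2, measured 49.5, 38.9 and 36.6 CPM in HCT8, 64.1, 95.2 and 87.1 CPM in HCT8/5-Fu and 64.1, 61.8 and 63.9 CPM in HCT8/DDP. All 6 libraries of the resistant lines lay above all 3 of HCT8. KEAP1 rose 2.15-fold in HCT8/5-Fu (log2 fold change 1.10 ± 0.20 SE, edgeR adjusted p = 0.00252). In HCT8/DDP it rose 1.66-fold (log2 fold change 0.73 ± 0.11 SE, edgeR adjusted p = 9.72e-05).

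The genes of glutathione supply did not move one way. GCLC and GCLM encode the catalytic and the modifier subunit of glutamate-cysteine ligase, the first step of glutathione synthesis. GCLC measured 167, 159 and 157 CPM in HCT8, 148, 122 and 115 CPM in HCT8/5-Fu and 129, 115 and 109 CPM in HCT8/DDP. Both resistant lines lay below HCT8 without overlap, but only the fall in HCT8/DDP passed the test (log2 fold change -0.33 ± 0.09 SE, edgeR adjusted p = 0.00752, against -0.23 ± 0.11 and 0.125 in HCT8/5-Fu, where it passed without replicate 1 of that line, at 0.0214). GCLM measured 37.0, 28.1 and 27.3 CPM in HCT8, 39.6, 49.5 and 44.1 CPM in HCT8/5-Fu and 36.1, 31.3 and 41.5 CPM in HCT8/DDP, where it overlapped HCT8. The modifier subunit was thus higher in HCT8/5-Fu (log2 fold change 0.65 ± 0.16 SE, edgeR adjusted p = 0.0133) and less so in HCT8/DDP (0.36 ± 0.14, edgeR adjusted p = 0.0386). Neither GCLM call was firm: over the fits that left out 1 library the adjusted p ran from 0.00113 to 0.0658 in HCT8/5-Fu, where it failed without HCT8 replicate 2 or 3 or HCT8/5-Fu replicate 2. In HCT8/DDP it ran from 0.00337 to 0.174 and failed without HCT8 replicate 2 or 3 or HCT8/DDP replicate 1 or 3. GSS, the second enzyme of synthesis, fell in HCT8/5-Fu (log2 fold change -0.42 ± 0.11 SE, edgeR adjusted p = 0.0157), a call lost without HCT8 replicate 3 or HCT8/5-Fu replicate 2 or 3 (0.0509 to 0.0801), and was not called in HCT8/DDP (-0.08 ± 0.09). GSR, which returns oxidized glutathione to its reduced form, was not called in either line (0.16 ± 0.14 and 0.19 ± 0.09), but passed as higher in HCT8/5-Fu without replicate 1 of that line (0.28, edgeR adjusted p = 0.0295) and in HCT8/DDP without HCT8 replicate 1 (0.24, edgeR adjusted p = 0.0125).

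SLC7A11, the cystine importer that supplies cysteine for glutathione, had libraries that disagreed widely within HCT8/DDP. It measured 85.4, 62.5 and 63.8 CPM in HCT8, 59.6, 71.4 and 61.5 CPM in HCT8/5-Fu and 217, 99.6 and 58.9 CPM in HCT8/DDP. In CPM, which carry no TMM factor, the HCT8/DDP libraries ran from below every HCT8 library to far above. With TMM factors (0.9502 in HCT8/DDP replicate 3, 1.029 to 1.093 in HCT8) the lowest lay within the HCT8 range. The mean of SLC7A11 was 125 ± 81.8 CPM (SD, n = 3) against 70.6 ± 12.8 CPM in HCT8. The fit called it higher in HCT8/DDP (log2 fold change 0.94 ± 0.32 SE, edgeR adjusted p = 0.0266). Without HCT8/DDP replicate 1 the log2 fold change was 0.30 (edgeR adjusted p = 0.212), and the call was also lost without HCT8 replicate 2 (0.0561) or 3 (0.0504), with DESeq2 (0.145) and with library totals (0.0561), so the rise rests on 1 library. In HCT8/5-Fu its log2 fold change was -0.02 ± 0.15 (edgeR adjusted p = 0.928). It was 0.21 (edgeR adjusted p = 0.00494) when the first replicates of HCT8 and HCT8/5-Fu were left out, a fit that keeps only the most alike libraries.

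**Figure D2:**
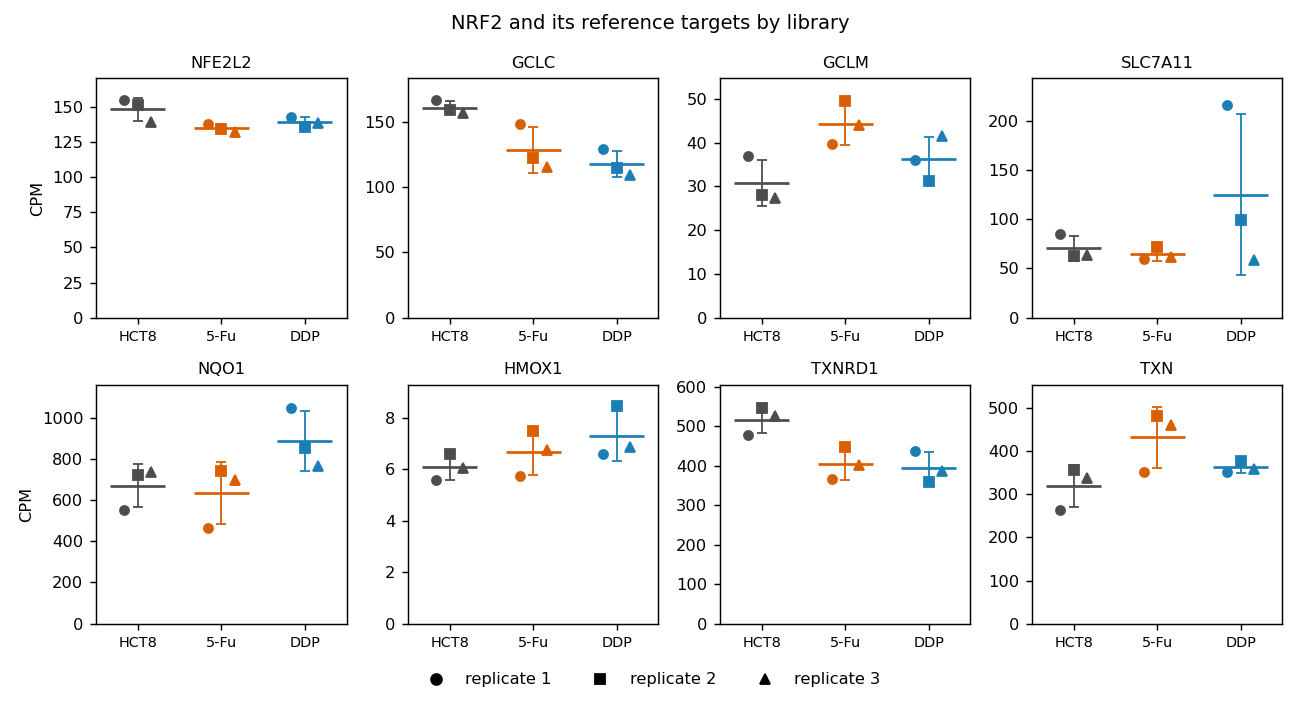
Levels in CPM of NFE2L2 and 7 reference genes of the pathway in each library, with the mean of 3 libraries (line) and ± SD (bar), on axes that start at 0. SLC7A11 in HCT8/DDP runs from 58.9 to 217 CPM, and in CPM the libraries of HMOX1 overlap between all 3 lines, HCT8/DDP and HCT8 only just.

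Among the classical target genes outside glutathione synthesis, NQO1 reduces quinones by transferring a pair of electrons. It measured 552, 721 and 738 CPM in HCT8, 462, 743 and 697 CPM in HCT8/5-Fu and 1045, 851 and 763 CPM in HCT8/DDP. NQO1 was higher in all 3 HCT8/DDP libraries than in any HCT8 library (log2 fold change 0.52 ± 0.15 SE, edgeR adjusted p = 0.0105), although the call was lost without HCT8/DDP replicate 1 (0.0618) and with all 9 libraries in 1 fit (0.0777). HCT8/5-Fu overlapped HCT8 (0.04 ± 0.24, edgeR adjusted p = 0.916). HMOX1, heme oxygenase, was low throughout, at 5.57, 6.59 and 6.06 CPM in HCT8, 5.74, 7.46 and 6.74 CPM in HCT8/5-Fu and 6.59, 8.45 and 6.87 CPM in HCT8/DDP. In CPM the lines overlapped, HCT8/DDP and HCT8 only just (6.589 CPM in HCT8/DDP replicate 1, 6.59 CPM in HCT8 replicate 2). With TMM factors (0.9821 and 1.029 for these libraries) every HCT8/DDP library lay above HCT8. The log2 fold changes of HMOX1, 0.24 ± 0.22 and 0.38 ± 0.19, did not pass (edgeR adjusted p = 0.416 and 0.114). OSGIN1, a growth inhibitor induced by oxidative stress, fell in both lines, from 16.8 to 20.5 CPM in HCT8 to 9.99 to 14.9 CPM in HCT8/5-Fu (log2 fold change -0.59 ± 0.17 SE, edgeR adjusted p = 0.0216) and 10.2 to 13.1 CPM in HCT8/DDP (-0.56 ± 0.14, edgeR adjusted p = 0.00529). The fall in HCT8/5-Fu was lost without HCT8 replicate 1 or 3 or HCT8/5-Fu replicate 2 or 3 (0.0513 to 0.094).

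None of the thioredoxin genes among the members was called against HCT8 with the main test. TXNRD1, the cytosolic reductase that recharges thioredoxin with NADPH, measured 478, 545 and 525 CPM in HCT8, 366, 448 and 402 CPM in HCT8/5-Fu and 437, 358 and 387 CPM in HCT8/DDP. In CPM, which carry no TMM factor, every library of the resistant lines lay below every HCT8 library. TMM factors were 1.029 to 1.093 in HCT8 and 0.9328 to 1.068 in the resistant lines, and with them the lines overlap. The test, which uses TMM, gave adjusted p-values of 0.265 in HCT8/5-Fu (edgeR, log2 fold change -0.24 ± 0.16 SE) and 0.0549 in HCT8/DDP (edgeR, -0.27 ± 0.11). The HCT8/DDP value passed with DESeq2 (0.0232), with library totals (0.00721), with upper-quartile factors (0.0154), with no filter (0.049), and without HCT8 replicate 1 (0.00258) or HCT8/DDP replicate 1 (0.0467). TXN, thioredoxin itself, measured 264, 356 and 337 CPM in HCT8, 352, 482 and 460 CPM in HCT8/5-Fu and 350.4, 377 and 358 CPM in HCT8/DDP. The log2 fold change of TXN was 0.55 ± 0.20 in HCT8/5-Fu (edgeR adjusted p = 0.0622) and 0.30 ± 0.13 in HCT8/DDP (edgeR adjusted p = 0.0643). Without HCT8/5-Fu replicate 1, TXN passed in HCT8/5-Fu (log2 fold change 0.72, edgeR adjusted p = 0.00324), as it did with DESeq2 (0.0264), all 9 libraries in 1 fit (0.0238) and a replicate block (0.0113). In HCT8/DDP, TXN passed with DESeq2 (0.0429), with no filter (0.0477), with a replicate block (0.0427) and without HCT8 replicate 2 (0.0288). PRDX1, a peroxiredoxin that thioredoxin reduces, had log2 fold changes of 0.06 ± 0.16 and -0.07 ± 0.11.

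Of the members that make NADPH, ME1 and PGD rose in both lines. ME1, the cytosolic malic enzyme, makes NADPH from malate. It measured 59.5, 55.3 and 50.9 CPM in HCT8, 175, 146 and 137 CPM in HCT8/5-Fu and 120.1, 115 and 123 CPM in HCT8/DDP. The 3 lines did not overlap at all, with HCT8 lowest and HCT8/5-Fu highest. ME1 rose 2.96-fold in HCT8/5-Fu (log2 fold change 1.56 ± 0.11 SE, edgeR adjusted p = 1.87e-05) and 2.35-fold in HCT8/DDP (1.23 ± 0.09, edgeR adjusted p = 2.2e-07). PGD, the phosphogluconate dehydrogenase of the pentose phosphate pathway, measured 266, 251 and 254 CPM in HCT8, 374, 557 and 532 CPM in HCT8/5-Fu and 490, 459 and 518 CPM in HCT8/DDP. It rose 2.06-fold in HCT8/5-Fu (log2 fold change 1.04 ± 0.20 SE, edgeR adjusted p = 0.0033) and 2.07-fold in HCT8/DDP (1.05 ± 0.10, edgeR adjusted p = 1.6e-06), and neither call changed under any alternative. TALDO1 and TKT, transaldolase and transketolase of the branch that makes no NADPH, had log2 fold changes of 0.00 ± 0.18 and 0.05 ± 0.19 for HCT8/5-Fu, and of 0.08 ± 0.10 and 0.19 ± 0.09 for HCT8/DDP, none called. TKT passed as higher in HCT8/5-Fu without replicate 1 of that line (0.24, edgeR adjusted p = 0.0458), and in HCT8/DDP without HCT8 replicate 1 (edgeR adjusted p = 0.0412) and with DESeq2 (0.0456).

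The glutathione peroxidases differed by member. GPX4, which reduces lipid hydroperoxides in membranes, rose in HCT8/DDP from 118, 125 and 125 CPM to 177, 172 and 173 CPM (log2 fold change 0.62 ± 0.09 SE, edgeR adjusted p = 8.33e-05). In HCT8/5-Fu it measured 110.3, 178 and 181 CPM and was not called (0.47 ± 0.22, edgeR adjusted p = 0.118). Only replicate 1 of HCT8/5-Fu lay below HCT8, and without it GPX4 was called higher (log2 fold change 0.71, edgeR adjusted p = 0.000274). GPX3, the secreted plasma form, likewise rose in HCT8/DDP (0.70 ± 0.12, edgeR adjusted p = 0.000436), and in HCT8/5-Fu only without replicate 1 (0.35 ± 0.19 with it, 0.52 and an edgeR adjusted p of 0.00765 without). GPX2, the form of gut epithelium, fell from 17.01, 22.6 and 21.8 CPM in HCT8 to 13.6, 12.0 and 11.6 CPM in HCT8/DDP (-0.61 ± 0.15, edgeR adjusted p = 0.00474), a call lost with all 9 libraries in 1 fit (0.0963). Its libraries of HCT8/5-Fu, at 6.25, 13.0 and 14.3 CPM, also lay below HCT8 but did not pass (-0.74 ± 0.32, edgeR adjusted p = 0.0984). They passed with library totals (0.0453), DESeq2 (0.0474), all 9 libraries in 1 fit (0.0491) and a replicate block (0.0364). GPX8, of the endoplasmic reticulum, had log2 fold changes of -0.06 ± 0.16 and 0.11 ± 0.13.

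The glutathione transferases, which join glutathione to electrophiles, held some of the deepest falls. GSTA4, known for conjugating hydroxynonenal from peroxidized lipids, measured 12.2, 16.5 and 14.1 CPM in HCT8, 0.554, 0.876 and 0.745 CPM in HCT8/5-Fu and 3.26, 2.005 and 2.24 CPM in HCT8/DDP. The 3 lines did not overlap. It fell 17.8-fold in HCT8/5-Fu (log2 fold change -4.16 ± 0.28 SE, edgeR adjusted p = 1.45e-05) and 5.27-fold in HCT8/DDP (-2.40 ± 0.23, edgeR adjusted p = 2.11e-06). MGST1, a membrane-bound transferase and peroxidase, was steady in HCT8 at 44.8, 45.5 and 44.4 CPM and dropped to 6.45, 2.59 and 3.16 CPM in HCT8/5-Fu and 3.15, 3.37 and 4.03 CPM in HCT8/DDP. This was a 10.6-fold fall in HCT8/5-Fu (log2 fold change -3.41 ± 0.27 SE, edgeR adjusted p = 3.29e-05) and an 11.7-fold fall in HCT8/DDP (-3.55 ± 0.14, edgeR adjusted p = 8.88e-10). Replicate 1 of HCT8/5-Fu held the highest MGST1 of its line but still lay far below HCT8.

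The mu class moved in both directions. GSTM4 rose in HCT8/DDP, from 37.6, 50.7 and 48.8 CPM in HCT8 to 95.4, 86.9 and 82.0 CPM (log2 fold change 1.06 ± 0.13 SE, edgeR adjusted p = 1.71e-05). In HCT8/5-Fu it measured 44.5, 57.3 and 58.1 CPM (0.33 ± 0.19, edgeR adjusted p = 0.193), and passed without replicate 1 of that line (0.50, edgeR adjusted p = 0.0182). GSTM3 fell from 79.0, 139 and 130 CPM in HCT8 to 70.9, 54.3 and 55.6 CPM in HCT8/5-Fu (-0.86 ± 0.22, edgeR adjusted p = 0.0134) and 66.6, 63.3 and 68.0 CPM in HCT8/DDP (-0.70 ± 0.18, edgeR adjusted p = 0.005). HCT8 replicate 1 was by far the lowest of its line, and the fall in HCT8/5-Fu was lost without HCT8 replicate 2 (0.0597) or 3 (0.0542). GSTM2 measured 8.87 CPM in HCT8/5-Fu replicate 1 against 1.86 and 3.08 CPM in replicates 2 and 3, and was not called in either line with all libraries. It passed as lower in HCT8/5-Fu without that replicate 1 (-0.82, edgeR adjusted p = 0.0372), and in HCT8/DDP without HCT8 replicate 1 (0.044), without HCT8/DDP replicate 1 (0.0417) and with library totals (0.0419). Members of this class are close in sequence and the way the authors counted shared reads is not given in the sources used here, so the split between them is uncertain.

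Of the other transferases, GSTP1, the most abundant one in these cells, just passed as lower in HCT8/DDP (log2 fold change -0.27 ± 0.11, edgeR adjusted p = 0.0494). The call was lost without any single library except HCT8 replicate 1 (0.0822 to 0.218), with all 9 libraries (0.225) and with a replicate block (0.0774). In HCT8/5-Fu the log2 fold change of GSTP1 was -0.23 ± 0.20. GSTZ1, which isomerizes maleylacetoacetate in tyrosine breakdown, fell in HCT8/5-Fu (-0.74 ± 0.16, edgeR adjusted p = 0.00584). Its smaller difference in HCT8/DDP (-0.33 ± 0.12, edgeR adjusted p = 0.0413) was lost without HCT8 replicate 2 or 3 or HCT8/DDP replicate 2 or 3 (0.0947 to 0.191). It was also lost with all 9 libraries in 1 fit (0.0818) and with a replicate block (0.0605). GSTO1, GSTK1, MGST2 and MGST3 were not called in either line, with log2 fold changes between -0.38 and 0.37. GSTO1 passed as higher in HCT8/5-Fu without replicate 1 of that line (0.49, edgeR adjusted p = 0.00902), with all 9 libraries in 1 fit (0.0423) and with a replicate block (0.0495). MGST3 passed in both lines as lower without HCT8 replicate 1 (-0.58 and -0.27).

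The aldo-keto reductases, NADPH-dependent enzymes that turn aldehydes and ketones into alcohols, held the deepest fall of the members in each line. AKR1B10, which acts on retinal and aliphatic aldehydes, measured 109, 147 and 153 CPM in HCT8, 6.85, 5.47 and 7.94 CPM in HCT8/5-Fu and 11.6, 11.5 and 8.40 CPM in HCT8/DDP. No library of a resistant line came near HCT8. AKR1B10 fell 18.8-fold in HCT8/5-Fu (log2 fold change -4.23 ± 0.21 SE, edgeR adjusted p = 3.12e-06) and 12.0-fold in HCT8/DDP (-3.59 ± 0.17, edgeR adjusted p = 3.13e-09). By length, it moved from the sixth highest member in HCT8, at 76.9 ± 13.3 FPKM (fragments scaled to gene length and library total, SD, n = 3), to rank 27 of 39 in both resistant lines, at 3.81 ± 0.70 and 5.93 ± 1.03 FPKM. AKR1B1, aldose reductase and a close relative, went the other way at a low level, from 1.22, 0.56 and 1.15 CPM in HCT8 to 2.32, 1.65 and 1.56 CPM in HCT8/5-Fu and 2.44, 2.18 and 2.69 CPM in HCT8/DDP. Its rise passed in HCT8/DDP (log2 fold change 1.45 ± 0.36 SE, edgeR adjusted p = 0.00465) and not in HCT8/5-Fu (1.01 ± 0.39, edgeR adjusted p = 0.0678). With all 9 libraries in 1 fit it passed in HCT8/5-Fu as well (edgeR adjusted p = 0.037).

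**Figure D3:**
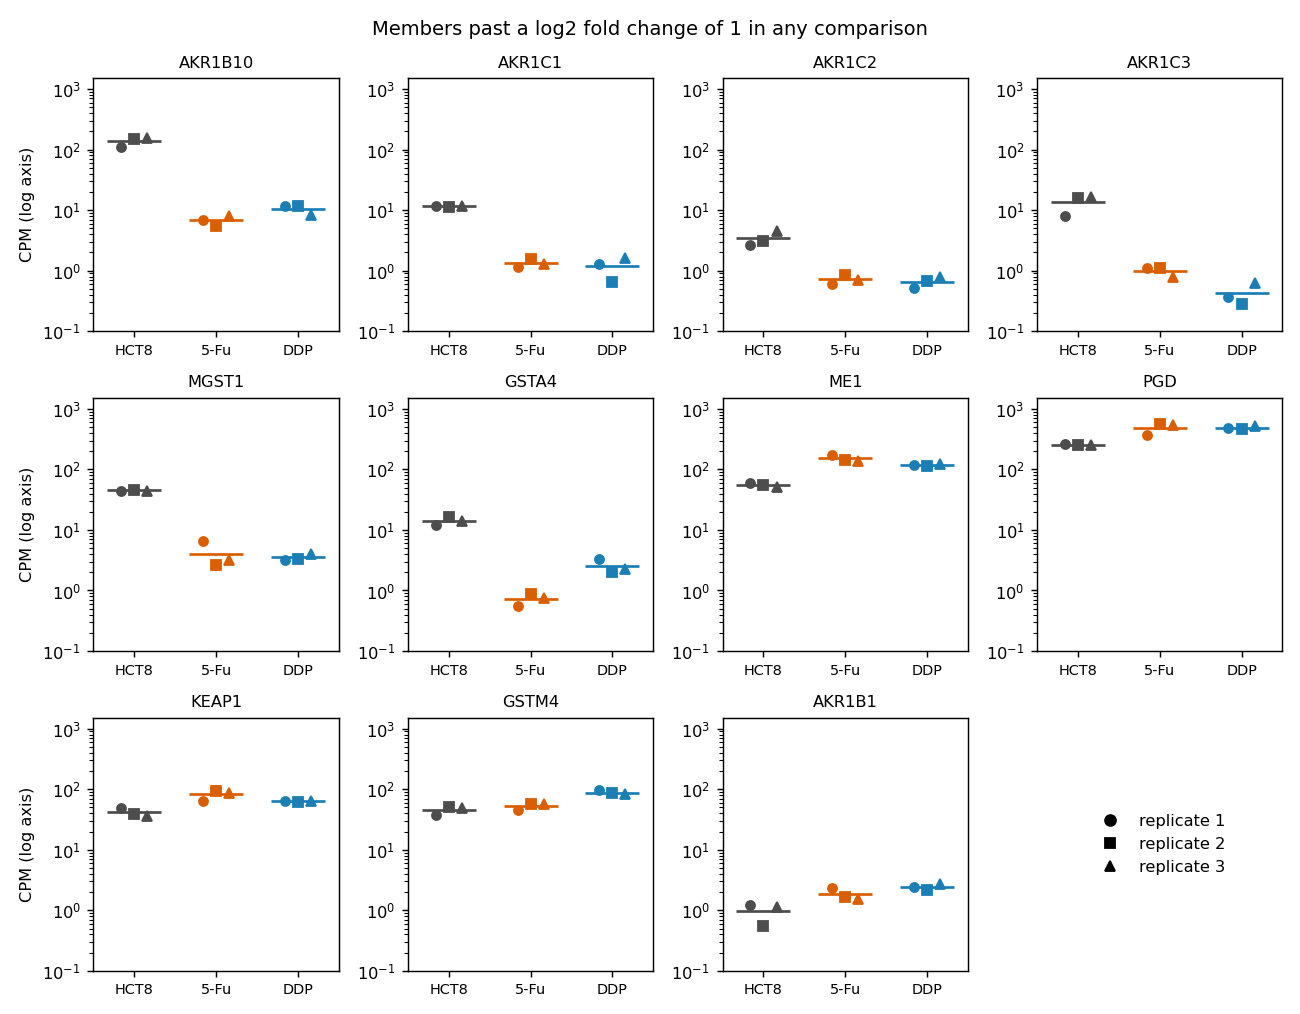
Levels in CPM (log axis) in each library of the 11 members past a log2 fold change of 1 with an adjusted p under 0.05 in HCT8/5-Fu or HCT8/DDP, with the mean of 3 libraries as a line. AKR1B10, the AKR1C genes, MGST1 and GSTA4 lie far lower in both resistant lines, and ME1, PGD and KEAP1 lie higher in both. With the main test GSTM4 and AKR1B1 pass in HCT8/DDP only.

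The AKR1C genes encode hydroxysteroid dehydrogenases, of which AKR1C1 inactivates progesterone, AKR1C2 inactivates dihydrotestosterone and AKR1C3 forms testosterone and prostaglandin F. AKR1C1 measured 11.8, 11.4 and 11.9 CPM in HCT8, 1.16, 1.54 and 1.28 CPM in HCT8/5-Fu and 1.30, 0.645 and 1.61 CPM in HCT8/DDP. The fall passed in both lines (log2 fold change -3.01 ± 0.23 SE, edgeR adjusted p = 2.74e-05, and -3.18 ± 0.28, edgeR adjusted p = 1.12e-06). AKR1C2 measured 2.63, 3.06 and 4.52 CPM in HCT8, 0.605, 0.841 and 0.709 CPM in HCT8/5-Fu and 0.518, 0.68 and 0.784 CPM in HCT8/DDP (-2.12 ± 0.37, edgeR adjusted p = 0.00234, and -2.24 ± 0.36, edgeR adjusted p = 0.000232). AKR1C3 measured 7.999, 15.98 and 16.6 CPM in HCT8, 1.11, 1.12 and 0.78 CPM in HCT8/5-Fu and 0.37, 0.286 and 0.635 CPM in HCT8/DDP. It had the largest fitted fall of the 37 members, 28.97-fold in HCT8/DDP (log2 fold change -4.86 ± 0.38 SE, edgeR adjusted p = 4.22e-07), and fell 12.6-fold in HCT8/5-Fu (-3.66 ± 0.36, edgeR adjusted p = 0.000113).

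AKR1C1 and AKR1C2 are near copies, so reads may be shared between them. Likeness of their mRNAs was not computed here. The 100 bases before their RefSeq starts, on the strand of each gene with the 95-base run they share in capitals, show only how alike the upstream sequences are.
AKR1C1, chr10:4963315-4963414: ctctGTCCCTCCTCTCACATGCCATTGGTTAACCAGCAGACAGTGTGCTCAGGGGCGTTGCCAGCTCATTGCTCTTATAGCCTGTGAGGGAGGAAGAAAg
AKR1C2, chr10:5003858-5003957: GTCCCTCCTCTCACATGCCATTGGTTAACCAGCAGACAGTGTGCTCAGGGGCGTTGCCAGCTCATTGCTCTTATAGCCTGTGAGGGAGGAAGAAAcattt
Their full windows were 93.5% identical, against 74.7% for AKR1C1 and the first window of AKR1C3, and none held the core of the response element. Sequence beyond the windows was not read, so this does not show that these genes lack an element. The sum of AKR1C1, AKR1C2 and AKR1C3 does not depend on how reads are split among them, unless shared reads were dropped or counted repeatedly. It was 22.4, 30.4 and 33.02 CPM in HCT8, 2.87, 3.50 and 2.77 CPM in HCT8/5-Fu and 2.18, 1.61 and 3.02 CPM in HCT8/DDP, that is 9.39-fold and 12.6-fold lower on average.

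**Figure D4:**
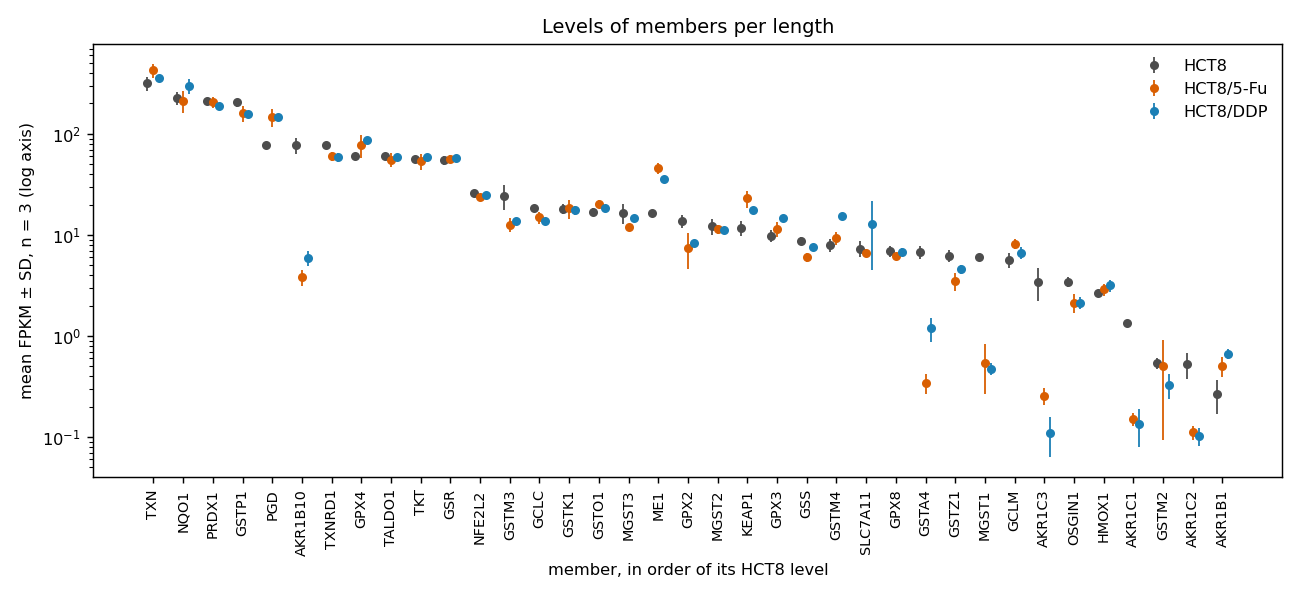
Mean level per length of the members in FPKM (log axis) with ± SD (3 libraries) in HCT8 (grey), HCT8/5-Fu (orange) and HCT8/DDP (blue), ordered by the HCT8 level. TXN, NQO1, PRDX1 and GSTP1 lead in all 3 lines, and AKR1B10 drops from rank 6 to 27 in both resistant lines.

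By level per length, TXN, NQO1, PRDX1 and GSTP1 were the 4 highest members in every line. In HCT8 they stood at 316 ± 48.2, 226 ± 34.5, 214 ± 13.2 and 205 ± 19.1 FPKM (SD, n = 3), where NQO1, PRDX1 and GSTP1 lay within each other's spread. PGD, AKR1B10 and TXNRD1 followed at 77.1 ± 2.40, 76.9 ± 13.3 and 76.9 ± 5.14 FPKM, again within their spread. NFE2L2 ranked 12 in all 3 lines, at 23.8 to 26.2 FPKM on average. KEAP1 moved from rank 21 to rank 13 in HCT8/5-Fu and 14 in HCT8/DDP, and ME1 from 18 to 11 in both.

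The resistant lines were then compared with each other. No member was called between HCT8/DDP and HCT8/5-Fu in edgeR, where 2.27% of 13012 genes were called (1.51% higher and 0.753% lower in HCT8/DDP), although 9 members had an unadjusted p under 0.05. With DESeq2, GSS, GSTA4, GSTM4 and MGST3 were higher in HCT8/DDP and ME1 was lower. GSTM4 and GSTA4 came closest in edgeR. GSTM4 had 82.0 to 95.4 CPM in HCT8/DDP against 44.5 to 58.1 CPM in HCT8/5-Fu (log2 fold change 0.71 ± 0.15 SE, edgeR adjusted p = 0.0516), and GSTA4 had 2.005 to 3.26 against 0.554 to 0.876 CPM (1.75 ± 0.37, edgeR adjusted p = 0.052). Without HCT8/5-Fu replicate 1, 6 members were higher and 6 lower, beside 29.9% of all genes. The higher ones were then GSS, GSTA4, GSTM4, GSTZ1, MGST3 and AKR1B10, and the lower ones KEAP1, GCLM, GSTP1, TXN, PRDX1 and ME1. Leaving out any other library of this comparison gave no call over all genes.

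A wider list of 67 redox genes from the same field, none of them members, had 61 genes tested against HCT8. In HCT8/5-Fu 15 were higher and 12 lower (44.3%), and in HCT8/DDP 20 were higher and 17 lower (60.7%), beside the 38.7% and 52.5% of all genes. NRF2's relatives and partners were among those with the smallest p: MAFF, a small MAF partner, rose in HCT8/5-Fu from 12.3, 13.1 and 16.4 CPM to 31.0, 31.9 and 29.9 CPM (log2 fold change 1.25 ± 0.16 SE, edgeR adjusted p = 0.00049), and it rose in HCT8/DDP too (1.15 ± 0.15, edgeR adjusted p = 4.37e-05). MAFK, another small MAF, rose in both lines (0.91 ± 0.13, edgeR adjusted p = 0.000819 for HCT8/5-Fu, and 0.50 ± 0.12, 0.00353 for HCT8/DDP). NFE2L1, a factor related to NRF2 and known for inducing proteasome genes, rose in HCT8/DDP (0.81 ± 0.09, edgeR adjusted p = 8.86e-06) and in HCT8/5-Fu (0.58 ± 0.15, edgeR adjusted p = 0.0155), the latter lost without HCT8 replicate 2 or 3 or HCT8/5-Fu replicate 2 or 3 (0.0613 to 0.0705). Of the thioredoxin system, the mitochondrial reductase TXNRD2 rose 2.80-fold in HCT8/5-Fu (1.49 ± 0.18, edgeR adjusted p = 0.000315) and 1.93-fold in HCT8/DDP (0.95 ± 0.16, edgeR adjusted p = 0.000364). PRDX2, a peroxiredoxin of the cytosol, rose in HCT8/DDP (0.80 ± 0.10, edgeR adjusted p = 3.39e-05) and in HCT8/5-Fu (0.68 ± 0.21, edgeR adjusted p = 0.0317). The HCT8/5-Fu call was lost without any single library except HCT8/5-Fu replicate 1 (0.0763 to 0.114), and with a replicate block (0.0562). TXNIP, which binds and restrains thioredoxin, measured 108, 351 and 387 CPM in HCT8, 18.2, 6.90 and 5.50 CPM in HCT8/5-Fu and 17.1, 20.6 and 13.4 CPM in HCT8/DDP. All libraries of the resistant lines lay well below HCT8, whose replicate 1 was itself the lowest of its line. TXNIP fell 27.0-fold in HCT8/5-Fu (-4.76 ± 0.59, edgeR adjusted p = 0.000374) and 15.4-fold in HCT8/DDP (-3.95 ± 0.39, edgeR adjusted p = 2.98e-06).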

How the data were processed

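The members and lists were chosen with earlier results of these data known. The authors describe rRNA depletion, RNase R treatment and alignment of reads with HISAT2, whose version is not given in the sources used here. No coordinates were taken from the deposited data, because the submitters' notes name mm9 for these human cells. RNase R digests linear RNA, and the sources do not state if it was also used ahead of mRNA counting. For 19976 genes the authors deposited raw read counts, and FPKM by the authors, which equalled count over length and total in 100% of values within a relative tolerance of 1e-06. CPM are counts over the library total, and FPKM served only to compare levels between genes. The circRNA, miRNA and lncRNA tables were not used here.

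Counts were tested in R 4.3.3 with edgeR 4.0.16 (limma 3.58.1; quasi-likelihood, TMM, filterByExpr), each comparison on its own 6 libraries, and also with DESeq2 1.42.0, library totals, upper-quartile factors, no filter, all 9 libraries, a replicate block and each library left out. SE is the log2 fold change over the square root of F. The script was tested on simulated data. Values for every library are given for NFE2L2, KEAP1, GCLC, GCLM, NQO1, TXNRD1, HMOX1 and SLC7A11, and for members past a log2 fold change of 1 with an adjusted p under 0.05. Values given for other members were chosen after they were seen. Of the wider list, up to 4 genes per comparison and direction with the smallest p may be named. SOD2 and GGT1 of that list have 2 IDs, of which the one with more counts was used.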

Additional observations from a re-analysis of the deposited data

How the results depend on the processing

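Of the 37 members tested, 16 kept their call or lack of one under every alternative in HCT8/5-Fu, 25 in HCT8/DDP and 25 between the resistant lines. In HCT8/5-Fu, 7 members were higher with all 9 libraries in 1 fit against 4, and the count of higher members ran from 3 to 11 and of lower ones from 7 to 12 when 1 library was left out. Higher genes of the wider list then ran from 8 to 20 and lower ones from 8 to 17. Without the first replicates of both lines (chosen after seeing the data) these counts were 15, 16, 25 and 23, and SLC7A11 turned from -0.02 to 0.21 on the log2 scale. Between HCT8/DDP and HCT8/5-Fu, members higher were 1 with library totals, 2 with upper-quartile factors, 2 with no filter, 2 with all 9 libraries and 4 with DESeq2, which had 1 lower, and both counts ran from 0 to 6 with 1 library left out. For the wider list DESeq2 gave 4 higher and 6 lower against 2 and 1, and leaving out 1 library 0 to 10 higher and 0 to 15 lower. The cause was not tested. Replicate numbers showed no clear pairing of the libraries. Same-numbered deviations correlated at 0.0561 to 0.0942 for HCT8/5-Fu and HCT8, beside -0.129 to 0.103 for differently numbered ones. For HCT8/DDP and HCT8 the values were -0.135 to 0.0371 beside -0.0666 to 0.104. Between the resistant lines they were -0.252 to 0.0766 beside -0.195 to 0.254. With the replicate block, members were 6 higher and 11 lower in HCT8/5-Fu, 11 and 10 in HCT8/DDP, and 0 and 0 between the resistant lines, where the wider list had 0 and 0 against 2 and 1. Members under about 1 CPM rest on few counts, and their folds are the least precise.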

Other observations

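Of the other genes of the wider redox list with the smallest p, SLC40A1, the iron exporter ferroportin, had 577 counts over the HCT8 libraries (4.61, 10.8 and 10.1 CPM) and 0 in either resistant line, so that HCT8/5-Fu was at least 217-fold lower and HCT8/DDP at least 231-fold lower against a floor of 3 counts over the group. GPX7, a peroxidase of the endoplasmic reticulum, had 400 counts in HCT8, 1 in HCT8/5-Fu and 4 in HCT8/DDP, 461-fold and 123-fold lower with 95% counting intervals of 82.3 to 18300 and 47.7 to 454. AIFM2, known as a suppressor of ferroptosis, rose in both lines (log2 fold change 0.87 ± 0.13 SE, edgeR adjusted p = 0.000844 in HCT8/5-Fu, and 0.98 ± 0.12, 1.56e-05 in HCT8/DDP). OXSR1, a stress-responsive kinase that acts on ion cotransporters, fell in both (-0.94 ± 0.12, edgeR adjusted p = 0.000354, and -1.003 ± 0.084, 7.78e-07). AKR7A2, an aldehyde reductase, rose in both (0.71 ± 0.11, edgeR adjusted p = 0.00123 in HCT8/5-Fu, and 0.91 ± 0.09, 3.24e-06 in HCT8/DDP).

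Between the resistant lines 3 of 59 tested genes of the wider list were called. BLVRA, which reduces biliverdin, measured 83.9, 80.7 and 79.7 CPM in HCT8/DDP against 57.3, 51.0 and 48.8 CPM in HCT8/5-Fu (log2 fold change 0.64 ± 0.08 SE, edgeR adjusted p = 0.0271), and NQO2, a relative of NQO1, was also higher (0.48 ± 0.09, edgeR adjusted p = 0.0391). ABCC4, an exporter of organic anions, was lower (-0.73 ± 0.09, edgeR adjusted p = 0.0268), at 119, 116 and 125 CPM against 219, 192 and 190 CPM, with HCT8 between them at 157 to 161 CPM. All 3 calls were lost without any single library other than HCT8/5-Fu replicate 1.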
